A study of Mus musculus with 4 samples.

Results

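The 9 genes described here are Eomes, the proneural factors Neurog1 and Neurog2, the NeuroD family members Neurod1, Neurod2, Neurod4 and Neurod6, and the intermediate progenitor genes Insm1 and Gadd45g. They were chosen by name, and each matched 1 row of the 13289 genes in the deposited count table. RNA-seq of polyadenylated RNA had been made from cerebral cortex of mouse embryos at embryonic day 15 (E15), with 2 control libraries, titled WT, and 2 libraries of an Lhx2 conditional knockout (Lhx2 cKO). Lhx2 encodes a LIM-homeodomain transcription factor of cortical progenitors. The Cre driver, the floxed allele, the genotype of the controls beyond WT, the sex and litter of the embryos and any pooling are not given in the sources used here. The labels do not say that the libraries came from separate embryos, so p-values measure only the spread between these libraries.

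In the embryonic cortex, radial glia divide at the ventricle and give rise to intermediate progenitors, which divide again in the subventricular zone and produce excitatory neurons. Neurog1 and Neurog2 are basic helix-loop-helix (bHLH) transcription factors that commit radial glia to the neuronal path, and Gadd45g, of the growth arrest and DNA damage family, is switched on briefly in cells leaving the radial glial state. Insm1, a zinc-finger repressor, and Eomes (also called Tbr2), a T-box factor, mark intermediate progenitors, and the NeuroD bHLH factors follow: Neurod4 and Neurod1 in progenitors and newborn neurons, Neurod2 and Neurod6 in postmitotic excitatory neurons. This order was taken from general knowledge of the lineage. The single genes overlap in time more than such an order shows.

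The 250 bases upstream of the transcription start were read for the 8 of the 9 genes that have a RefSeq promoter entry (GRCm38.p6; Insm1 has no entry). Shown are the genes with the largest falls below, Neurog1 and Eomes, and the pair with fold changes nearest to 0, Gadd45g and Neurod2. Capitals mark E-boxes (CANNTG, the site bound by bHLH factors, which reads as CANNTG on both strands) and the homeodomain core TAATTA (the same on both strands).
Neurog1, chr13:56252181-56252430, minus strand: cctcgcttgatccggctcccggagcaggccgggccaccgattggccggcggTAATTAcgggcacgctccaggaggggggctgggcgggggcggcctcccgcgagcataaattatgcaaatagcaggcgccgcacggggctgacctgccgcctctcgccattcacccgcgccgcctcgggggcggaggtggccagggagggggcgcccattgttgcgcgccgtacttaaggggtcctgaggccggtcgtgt
Eomes, chr9:118477939-118478188, plus strand: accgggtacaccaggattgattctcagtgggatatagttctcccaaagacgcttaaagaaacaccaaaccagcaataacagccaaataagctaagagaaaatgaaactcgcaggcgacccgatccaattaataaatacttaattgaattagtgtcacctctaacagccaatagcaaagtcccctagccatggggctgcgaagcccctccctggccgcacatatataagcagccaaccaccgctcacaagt
Gadd45g, chr13:51846425-51846674, plus strand: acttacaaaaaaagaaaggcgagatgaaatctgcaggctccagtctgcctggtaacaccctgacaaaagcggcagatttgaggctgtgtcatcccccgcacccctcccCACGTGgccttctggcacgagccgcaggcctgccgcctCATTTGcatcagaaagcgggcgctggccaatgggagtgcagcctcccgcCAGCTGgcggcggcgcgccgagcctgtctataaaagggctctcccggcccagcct
Neurod2, chr11:98329646-98329895, minus strand: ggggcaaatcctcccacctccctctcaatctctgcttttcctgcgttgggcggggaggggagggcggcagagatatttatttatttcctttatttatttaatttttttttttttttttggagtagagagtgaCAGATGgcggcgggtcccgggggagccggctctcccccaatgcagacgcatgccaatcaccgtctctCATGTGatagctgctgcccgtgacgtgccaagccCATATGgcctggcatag
The windows of Gadd45g and Neurod2 each held 3 E-boxes. In Gadd45g, CACGTG began 142 bases before the start, and CATTTG and CAGCTG began 104 and 55 bases before it. In Neurod2, CAGATG began 118 bases before the start, with the other two at 51 and 17 bases. Neurod6 held 2 and Neurod1 held 1. No CANNTG stood in the 250 bases of Neurog1, Neurog2, Eomes or in either of the 2 windows of Neurod4, whereas 66.2% of all 32817 upstream windows held at least 1. Of the more specific E-boxes, searched on both strands and counted among the above, CAGATG was present in 14.5% of all windows. The E-box CAGCTG was present in 13% of them. TAATTA was found in Neurog1 alone among the 8 genes, 199 bases upstream of the start, and in 4.85% of all windows. AGGTGT, a T-box motif searched on both strands, was found in Neurod4 and Neurod6 and in 11.8% of all windows. These matches describe letters in a window and were not tested for binding; the deposited counts were made on mm39, and only the sequence windows use GRCm38.p6.

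Library totals over the deposited genes ranged from 22294237 to 24609627 counts, and mitochondrial transcripts took 10% to 12.9% of them. Lhx2 was at 311 and 293 counts per 1000000 of the library total (CPM) in control and at 244 and 241 CPM in Lhx2 cKO, so 80.7% of the control level remained (-0.31 on the log2 scale, SE 0.0976, with an adjusted p of 0.0191 in the edgeR fit described next). That call was lost without control 1 (adjusted p 0.176), without Lhx2 cKO 1 (0.102) and without Lhx2 cKO 2 (0.0538). Which exons were deleted is not given here, and the counts cover the whole gene. All 8 genes of a cortex identity list (among them Emx1, Emx2, Lhx2, Tbr1, Bcl11b and Fezf2) had at least 422 counts in every library, so markers of the labelled tissue were present.

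The comparison asks how this set of genes differed between the E15 control and Lhx2 cKO cortex. Of the 9 genes, all of which passed the filter on low counts, 5 fell in Lhx2 cKO: Neurog1, Eomes, Insm1, Neurog2 and Neurod6. Here a gene is called when its Benjamini-Hochberg adjusted p over all 13288 genes tested was under 0.05 in edgeR. Of all genes tested, 9.17% were called lower and 11.6% higher, or 1218 and 1540 genes. Those counts were 794 and 994 without control 1, and 768 and 864 without Lhx2 cKO 2. DESeq2 called 7.34% of genes lower and 8.98% higher, and limma-voom 9.13% and 11.6%, and both called the same 5 of the 9 lower. None of the 9 was called higher by edgeR, DESeq2 or limma-voom, and 0 of them were higher at an unadjusted p under 0.05 in edgeR. The median log2 fold change of the 9 was -0.32, against 0.003 over all genes tested. In this bulk tissue, fewer cells of a type and less RNA per cell cannot be told apart.

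**Figure D1:**
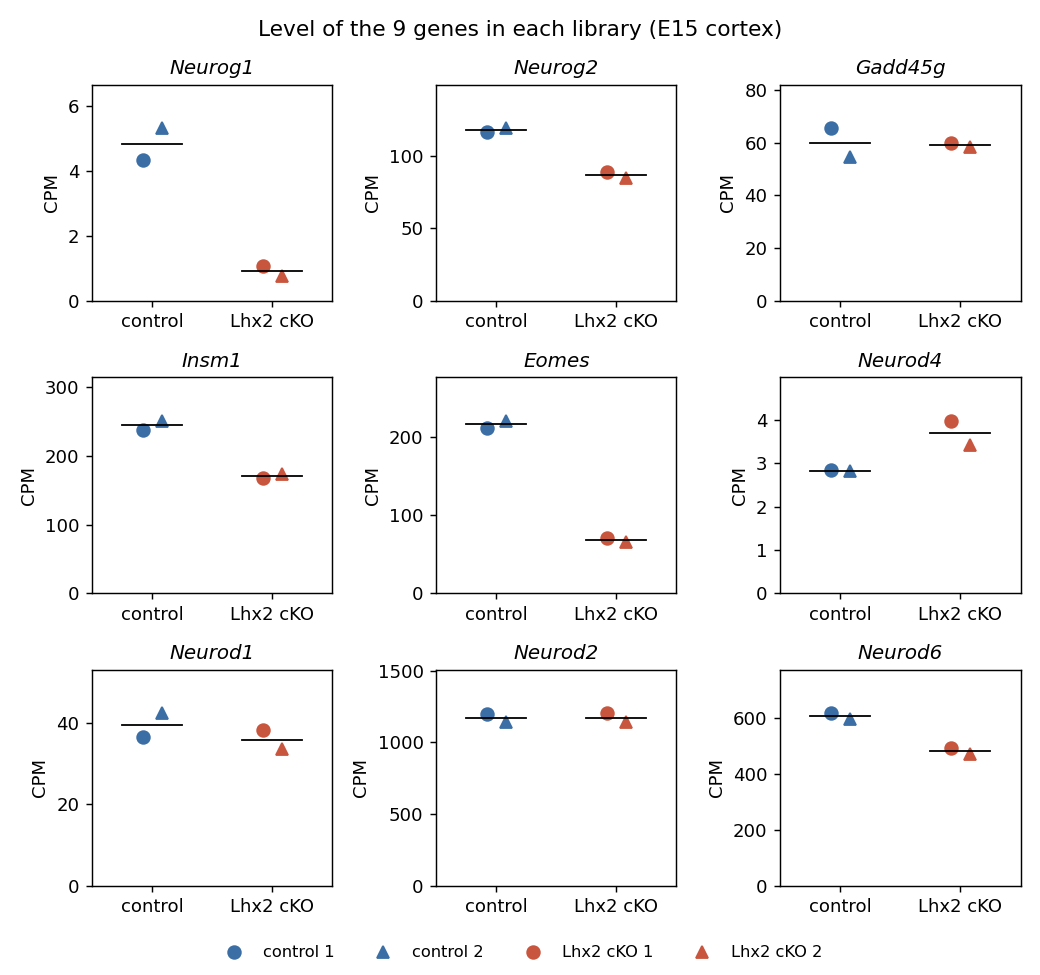
Level of each of the 9 genes in CPM (linear axes from 0), with 1 point per library, control in blue and Lhx2 cKO in red, and a line at each group's mean. Eomes lay at 211 and 221 CPM in control and at 70.2 and 65.9 CPM in Lhx2 cKO, while the groups overlapped for Gadd45g, Neurod1 and Neurod2.

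Among the factors of commitment, Neurog1 was rare. It was at 4.35 and 5.32 CPM in control (107 and 130 counts) and at 1.08 and 0.762 CPM in Lhx2 cKO (24 and 18 counts). Both Lhx2 cKO libraries lay well below both control libraries, and 8 of all 13288 genes, Neurog1 included, had a log2 fold change as low or lower. The group means were 4.83 ± 0.685 and 0.919 ± 0.222 CPM (SD, n = 2 each), a log2 fold change of -2.38 (SE 0.348, 95% interval -3.08 to -1.68, adjusted p 1.27e-06 in edgeR), which left 19.2% of the control level. Few counts stand behind this value, and its interval is the widest of the 9 on the log2 scale.

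Neurog2, the main proneural factor of the dorsal cortex, was at 117 and 119 CPM in control and at 89 and 84.5 CPM in Lhx2 cKO. The groups did not overlap, and the fall was much smaller than that of its paralog: the log2 fold change was -0.43 (SE 0.0947, 95% interval -0.62 to -0.24, adjusted p 7.06e-04 in edgeR), or 74.1% of the control level. The 95% intervals of Neurog1 and Neurog2 did not overlap. Within each library, Neurog1 had 0.0373 and 0.0447 counts per Neurog2 count in control and 0.0121 and 0.00902 in Lhx2 cKO, a 3.91-fold fall of the ratio. With 2 libraries against 2, the exact two-sided permutation test over libraries cannot go below p = 0.333, the value obtained for this ratio and for every other ratio below except that of Neurod2 to Neurod1.

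Gadd45g was at 65.5 and 54.6 CPM in control and at 59.7 and 58.3 CPM in Lhx2 cKO. Both Lhx2 cKO values lay between the control values. The log2 fold change was -0.02 with a 95% interval from -0.23 to 0.19 (adjusted p 0.932 in edgeR), that is, between 85.3% and 114% of the control level. Without control 1 the estimate was 0.14, so its sign is not determined. The 3 factors placed at commitment therefore had a steep fall, a modest fall and no call.

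Among intermediate progenitor genes, Eomes stood apart. It had 5202 and 5396 counts in control against 1566 and 1556 in Lhx2 cKO, or 211 and 221 CPM against 70.2 and 65.9 CPM. Replicates differed little and the groups were far apart, so that 6 of the 13288 genes had a smaller p. The means were 216 ± 6.56 and 68.1 ± 3.07 CPM (SD, n = 2 each), and the log2 fold change was -1.66 (SE 0.0964, 95% interval -1.85 to -1.46, adjusted p 5.51e-17 in edgeR), leaving 31.7% of the control level. In the GENCODE M21 annotation an exon of Gm33460 on the other strand overlaps Eomes, and since the use of strand in counting is not given in the sources used here, reads of the pair cannot be told apart.

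Insm1, which promotes the formation of intermediate progenitors, was at 238 and 252 CPM in control and at 168 and 174 CPM in Lhx2 cKO. The groups did not overlap. The log2 fold change was -0.51 (SE 0.0959, 95% interval -0.70 to -0.31, adjusted p 1.01e-04 in edgeR), or 70.4% of control, and its interval did not overlap that of Eomes. In control each library had close to equal counts of the pair, with 0.887 and 0.877 Eomes counts per Insm1 count. In Lhx2 cKO the ratio was 0.419 and 0.378, a 2.22-fold fall.

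Neurod4 was the least abundant of the 9 in control, at 2.84 and 2.82 CPM (70 and 69 counts), and was at 3.99 and 3.43 CPM in Lhx2 cKO (89 and 81 counts). Both Lhx2 cKO libraries were higher, as for 28.9% of all genes tested, but the log2 fold change of 0.40 did not pass the test (95% interval -0.20 to 0.99, adjusted p 0.372 in edgeR). At this depth a change between 87.3% and 198% of the control level could not be resolved. The other genes without overlap were the 5 that fell, against 28.6% of all genes whose libraries lay lower without overlap.

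Along the next steps of the lineage, Neurod1, which follows Eomes as cells leave the intermediate progenitor state, was at 36.6 and 42.3 CPM in control and at 38.2 and 33.4 CPM in Lhx2 cKO. The groups overlapped, and the log2 fold change was -0.13 (95% interval -0.35 to 0.09, adjusted p 0.437 in edgeR). Its interval excludes a fall of the size seen for Eomes. Counted within a library, there were 0.173 and 0.192 Neurod1 counts per Eomes count in control and 0.544 and 0.507 in Lhx2 cKO, a 2.88-fold rise of the ratio. Neurod1 overlaps exons of Cerkl on the same strand and of Gm26755 on the other strand in GENCODE M21, so its counts are uncertain to that extent.

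Neurod2 and Neurod6, both of postmitotic excitatory neurons, were the most abundant of the set and differed from each other. Neurod2 was at 1199 and 1142 CPM in control and at 1204 and 1142 CPM in Lhx2 cKO, with a log2 fold change of 0.01 (95% interval -0.21 to 0.24, adjusted p 0.957 in edgeR). Its groups overlapped almost fully. Neurod6 was at 616 and 596 CPM in control and at 493 and 471 CPM in Lhx2 cKO, without overlap, with a log2 fold change of -0.32 (SE 0.103, 95% interval -0.53 to -0.11, adjusted p 0.0212 in edgeR), or 80% of control. This is the weakest of the 5 calls: it was lost without control 1 (adjusted p 0.158), without Lhx2 cKO 1 (0.0748) and without Lhx2 cKO 2 (0.0782). The ratio of Neurod6 to Neurod2 counts was 0.514 and 0.522 in control against 0.409 and 0.412 in Lhx2 cKO, a 1.26-fold fall with an SD of 0.0127 on the log2 scale within groups. The ratio of Neurod2 to Neurod1 overlapped between groups, at 32.8 and 27 in control against 31.5 and 34.2 in Lhx2 cKO (exact permutation p = 0.667, two-sided).

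**Figure D2:**
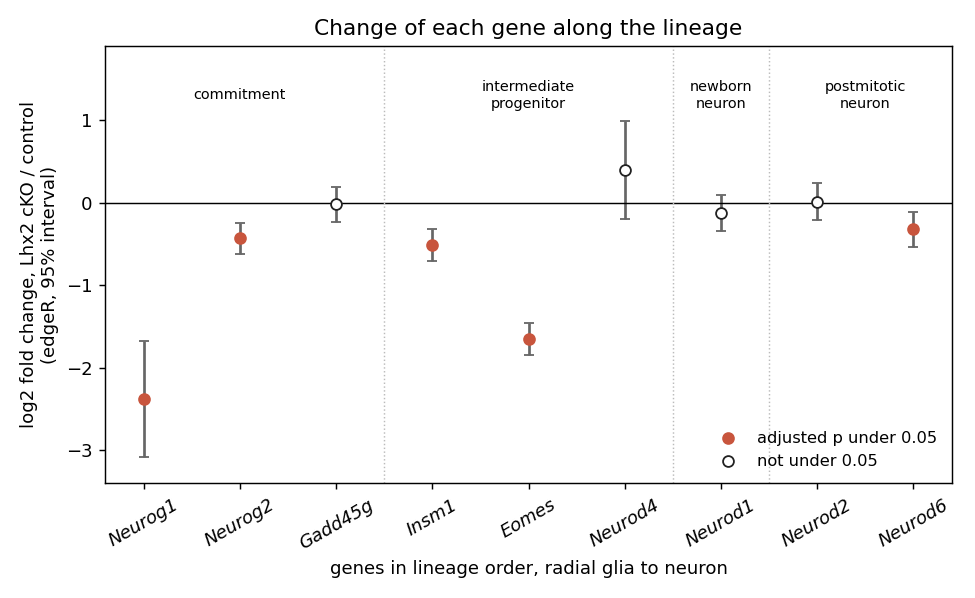
Change of the 9 genes in Lhx2 cKO relative to control (log2 scale, edgeR, with 95% intervals), ordered from commitment in radial glia to postmitotic neurons; filled points have an adjusted p under 0.05. The lowest points are Neurog1 at -2.38 and Eomes at -1.66, with Gadd45g at -0.02 between them in the order, and the values do not change steadily along it.

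The fall of Eomes was also set against progenitor genes of the same library. Pax6, the paired-box factor of radial glia, was at 122 and 137 CPM in control and at 58.7 and 50.3 CPM in Lhx2 cKO (edgeR log2 fold change -1.24, SE 0.0995, adjusted p 6.41e-13). Per Pax6 count there were 1.74 and 1.61 Eomes counts in control and 1.20 and 1.31 in Lhx2 cKO, a 1.34-fold fall. The ratio of Neurog2 to Pax6 counts rose 1.75-fold, from 0.959 and 0.868 in control to 1.52 and 1.68 in Lhx2 cKO. Neurog2 itself fell, but less than Pax6. Per Neurog2 count, Eomes had 1.81 and 1.85 counts in control against 0.789 and 0.78 in Lhx2 cKO, a 2.34-fold fall. Per count of Mki67, a gene of dividing cells, Eomes had 1.66 and 1.39 counts in control against 0.877 and 0.88 in Lhx2 cKO, a 1.73-fold fall. Eomes was thus lower relative to each of Pax6, Neurog2, Insm1 and Mki67 in both Lhx2 cKO libraries. The ratio of Neurod4 to Neurod1, from low counts of Neurod4, was 0.0778 and 0.0667 in control against 0.104 and 0.103 in Lhx2 cKO. In all, 10 ratios were computed. They share genes, so they are not independent of each other.

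**Figure D3:**
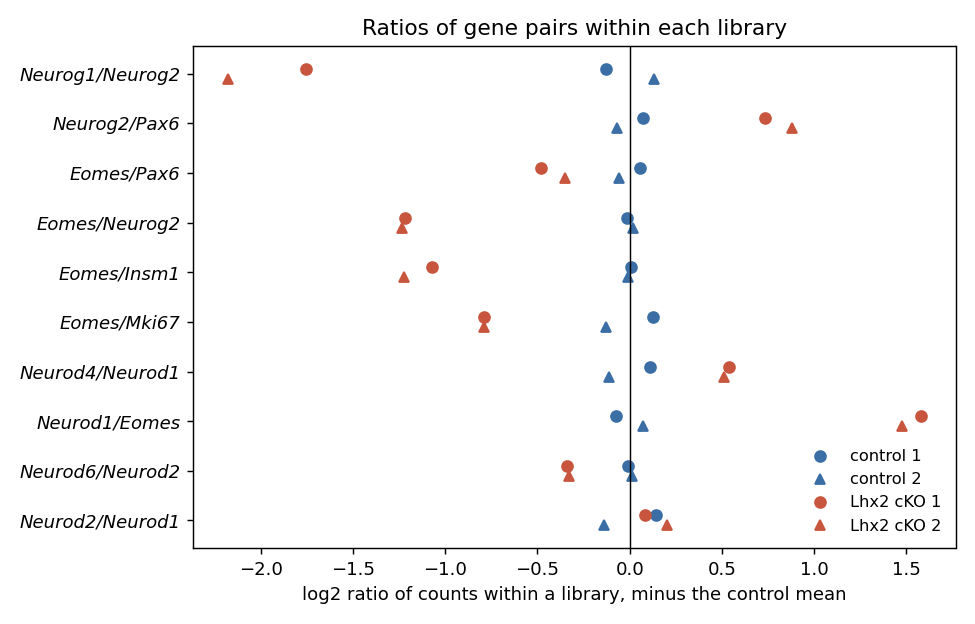
Log2 ratio of the counts of gene pairs within each library, minus the mean of the control libraries, for 10 pairs with 1 point per library. The ratio of Neurog1 to Neurog2 moved farthest (-1.97 on the log2 scale), that of Neurod1 to Eomes rose by 1.53, and Neurod2 to Neurod1 overlapped.

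Levels of different genes were compared per length, as CPM per kilobase (kb) of the deposited gene length. In control the order of means was Neurod2 (373 CPM per kb), Neurod6 (282), Insm1 (79), Neurog2 (52.9), Eomes (52), Gadd45g (51.2), Neurod1 (14.5), Neurog1 (2.87) and Neurod4 (0.847). The ranges of Neurog2 (52.3 to 53.5), Eomes (50.9 to 53.1) and Gadd45g (46.5 to 55.8 CPM per kb) overlapped, so these 3 neighbours were not separated by the spread of the libraries. In Lhx2 cKO this trio came apart, with means of 50.3 CPM per kb for Gadd45g, 39 for Neurog2 and 16.4 for Eomes. Eomes then stood next to Neurod1 at 13.1 CPM per kb, and Neurog1 at 0.545 fell below Neurod4 at 1.11 CPM per kb.

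The genes whose profile over the 4 libraries lay nearest to that of Eomes were, in order, Slc30a10, Palmd, Foxp4, Emx1, Zfp605 and Sorl1. Nearness was the Euclidean distance of log2 CPM (scaled with TMM), each gene centred on its control mean, among genes averaging at least 5 CPM. Genes on the sex chromosomes and genes with provisional names, such as Gm or Rik names, were left out. The distances ran from 0.137 for Slc30a10 to 0.302 for Sorl1. Slc30a10, a manganese exporter, was at 126 and 147 CPM in control and at 42.5 and 39.8 CPM in Lhx2 cKO (log2 fold change -1.72). Foxp4, a forkhead factor, was at 333 and 298 CPM against 111 and 97.3 CPM (-1.59), and Emx1, a homeodomain factor of the dorsal telencephalon, at 118 and 109 CPM against 39.9 and 37.9 CPM (-1.54). With 4 libraries in 2 groups, such a profile holds little more than the size of the fall.

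Other genes of intermediate progenitors fell in part. Of 12 such genes, 5 were called lower and 7 were not called, with a median log2 fold change of -0.26 (-0.17 without Lhx2 cKO 1); 0 were higher in edgeR, DESeq2 or limma-voom, or at an unadjusted p under 0.05. The largest fall was that of Mfap4, a matrix-associated gene, from 130 and 138 to 77.4 and 70 CPM (log2 fold change -0.85, adjusted p 3.96e-09 in edgeR), though Mfap4 overlaps Mapk7 on the other strand. Rhbdl3 was at -0.70, Mfng, a Fringe enzyme that modifies Notch, at -0.56, and Elavl4, a neuronal RNA-binding protein gene, at -0.55. Sstr2, a somatostatin receptor, was at -0.27 (adjusted p 0.04), a call lost in DESeq2 (0.0547), without control 2 (0.2) and without Lhx2 cKO 1 (0.388). Those not called lay between -0.27 and 0.18, among them Btg2, an antiproliferative gene of neurogenic divisions, at -0.27 (adjusted p 0.0596) and Nhlh1, a bHLH gene of newborn neurons, at 0.08. No gene of this list fell as far as Eomes.

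Of 12 genes that lie downstream of proneural factors, 3 were called lower and 0 higher; at an unadjusted p under 0.05 there were 4 lower and 1 higher, and DESeq2 and limma-voom each called 3 lower and 0 higher. The median was -0.14, and it was -0.062 without control 1 and -0.24 without control 2. Rnd2, a small GTPase of neuronal migration and a target of Neurog2, was at 215 and 193 CPM in control and at 91.8 and 96.4 CPM in Lhx2 cKO (edgeR log2 fold change -1.11, SE 0.0988, adjusted p 1.24e-11). Both Lhx2 cKO values were below both control values, and the 95% interval of Rnd2 (-1.31 to -0.91) lay below that of Neurog2. Rnd2 overlaps Vat1 on the other strand. Rcor2, a CoREST corepressor, fell by 0.87 on the log2 scale, and Dll1, a Notch ligand raised by Neurog2, by 0.50. The other 9 lay between -0.26 and 0.31, with Dll3 at -0.26 (adjusted p 0.0754), Hes6 at -0.15, Tbr1 at 0.08 and Dcx at 0.06.

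The E proteins, with which proneural factors pair to bind DNA, fell together: Tcf3 by 0.44, Tcf4 by 0.50 and Tcf12 by 0.30 on the log2 scale (adjusted p 8.27e-04, 0.00107 and 0.024 in edgeR). The call of Tcf12 was lost whichever library was left out, with adjusted p from 0.0504 to 0.167. Tcf4 was the most abundant, at 1524 and 1582 CPM in control and at 1190 and 992 CPM in Lhx2 cKO. In the list of 10 bHLH activators that holds them, 4 were lower, Neurod6 among them, and 2 higher; without control 1, Lhx2 cKO 1 or Lhx2 cKO 2, 2 were lower. The 2 that rose were Olig1 (1.26) and Olig2 (1.28), factors of the oligodendrocyte lineage, from 5.81 and 6.13 to 13.1 and 15.2 CPM for Olig1.

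Of 11 partners and relatives of Insm1 and Gadd45g, 4 were lower, 1 was higher and 6 were not called. In the Insm1 corepressor group, Rcor2 was at 617 and 524 CPM in control and at 342 and 282 CPM in Lhx2 cKO, Kdm1a (the histone demethylase of CoREST) was at -0.36 and Hdac1 at -0.47 on the log2 scale, while Hdac2 at -0.15 and Rcor1 at -0.13 were not called. Gadd45a, a paralog of Gadd45g, was the gene that rose, at 0.70 (adjusted p 0.0399 in edgeR). That call was lost in DESeq2 (0.0886) and whichever library was left out (0.0514 to 0.279). It was rare, at 3.41 and 3.84 CPM in control and 5.52 and 6.14 CPM in Lhx2 cKO. Tet3, a dioxygenase of DNA demethylation, was at -0.37. That call was lost without control 1 (adjusted p 0.202) and without Lhx2 cKO 1 (0.0659).

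On either side of the intermediate progenitor state stand radial glia and neurons. Of 12 radial glia genes 5 were lower and 1 higher (median -0.28), with Pax6 as given, Notch1, a receptor that holds radial glia in their state, at -0.72, Emx2 at -0.55, Nes at -0.40 and Prom1 at -0.28. The glutamate transporter Slc1a3 was higher at 0.27, and Sox2 (-0.11), Vim (0.20) and Fabp7 (0.16) were not called. The call of Nes was lost without control 1 (adjusted p 0.192) and, narrowly, without Lhx2 cKO 2 (0.0503). Those of Prom1 and Slc1a3 were lost in DESeq2 (0.0865 and 0.0876), without Lhx2 cKO 2 (0.292 and 0.194) and in further fits without 1 library. Without Lhx2 cKO 2, 3 genes of the list were lower and its median was -0.13, and without control 2 the median was -0.18. Of 14 cell cycle genes 11 were lower and 0 higher (median -0.56; 0 higher also at an unadjusted p under 0.05, in DESeq2 and in limma-voom), led by Cdk1 at -0.96, Mki67 at -0.87, Top2a at -0.86 and Mcm2 at -0.82. Without control 2, 7 of the 14 were lower. Of 12 genes of newborn and general neurons 1 was lower, Rbfox3 at -0.43, and 2 were higher, Stmn2 at 0.60 and Mapt at 0.45, with a median of 0.06; the call of Mapt was lost without control 2 (adjusted p 0.0936). Tbr1, which follows Eomes in glutamatergic neurons, was at 235 and 247 CPM in control and at 257 and 250 CPM in Lhx2 cKO. Counts are also uncertain for genes with exons that overlap another gene in GENCODE M21. Beside those given above, this holds for Emx2, Notch1, Dll1, Olig1, Top2a, Prom1, Gadd45a, Rcor1, Slc30a10, Palmd, Zfp605, Sorl1 and, named below, Reln. For Top2a and Rcor1 the overlap is on the same strand. For the others it is on the other strand, and the use of strand in counting is not given.

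**Figure D4:**
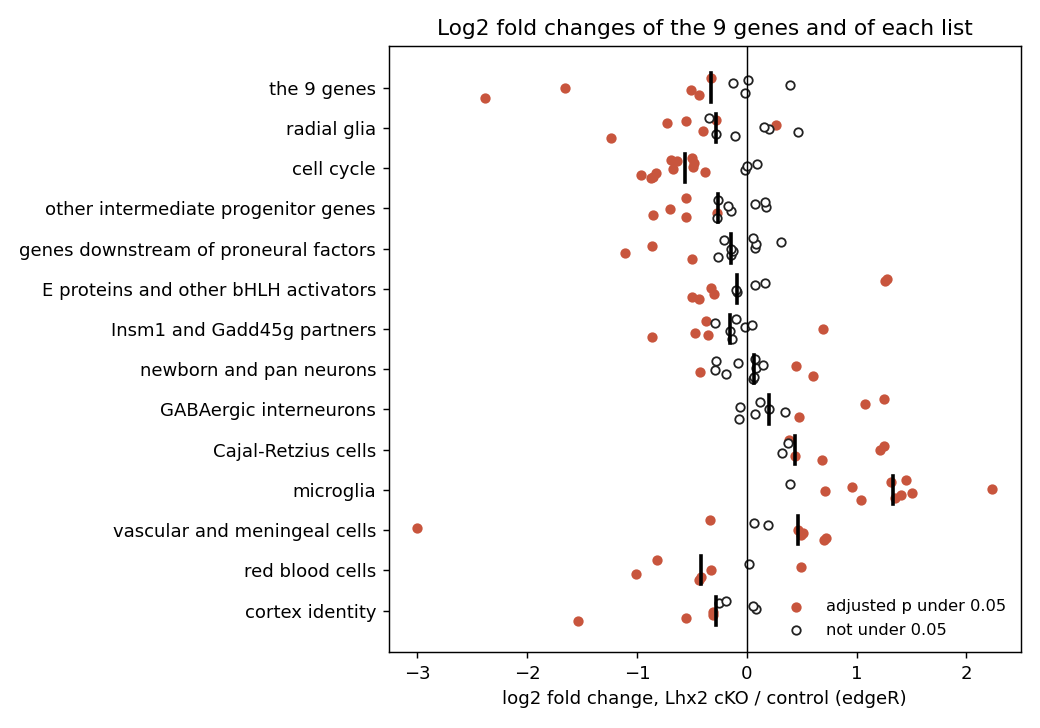
Log2 fold change (edgeR) of each of the 9 genes and of the genes of 13 lists, with 1 point per gene, filled where the adjusted p was under 0.05, and a bar at each median. Of the cell cycle list 11 of 14 points are filled and all 11 lie left of 0, and of the microglia list 9 of 10 are filled and all 9 lie right of 0.

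Markers of other cell types moved with the groups. For microglia 9 of 10 markers were higher, and their summed level was 122 to 130 CPM in control and 264 to 278 CPM in Lhx2 cKO. For Cajal-Retzius cells 5 of 7 were higher (312 to 358 against 485 to 586 CPM), for GABAergic interneurons 3 of 9 (319 to 333 against 419 to 448 CPM), and for vascular and meningeal cells 5 of 9 were higher and 2 lower (266 to 306 against 319 to 337 CPM). Most of the Cajal-Retzius sum was Reln, at 258 and 294 CPM in control and at 392 and 485 CPM in Lhx2 cKO. The vascular and meningeal sum hides opposite changes. Cldn5 was at 62.6 and 73.4 CPM in control and at 103 and 117 CPM in Lhx2 cKO (edgeR log2 fold change 0.70). Col1a1, a collagen gene, was at 25.4 and 23.6 CPM in control and at 4.53 and 1.61 CPM in Lhx2 cKO (-3.00). Rgs5, the other marker of that list called lower, was at -0.34, while Col3a1 (0.20) and Pdgfrb (0.06) were not called. Of the red blood cell markers 5 of 7 were lower and 1 higher (2405 to 3146 against 1865 to 2192 CPM). Without control 1, 1 red blood cell marker was lower (the list's median moved from -0.42 to -0.16), 2 vascular and meningeal markers were higher (median 0.23 in place of 0.46) and 3 Cajal-Retzius markers were higher. Without Lhx2 cKO 2, 3 red blood cell markers and 1 vascular and meningeal marker were lower, and 3 vascular and meningeal and 3 Cajal-Retzius markers were higher. Without control 2, 1 vascular and meningeal marker was lower, and the red blood cell marker that was higher lost its call there and without Lhx2 cKO 1. The counts for microglia and interneurons were as given whichever library was left out. No marker of these lists was at 0 in any library. The part of these markers, and of the lower cell cycle genes, in the values of the 9 genes was not tested. The ratios within a library given above do not depend on the library totals. They can still change with the mix of cells, and this was not tested.

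In the authors' deposited table, 2 of the 9 genes are marked as down, Eomes (log2 fold change -1.67) and Neurog1 (-2.39). In the authors' deposited table Insm1, at -0.52 with an adjusted p of 5.70e-06, and Neurog2, at -0.44 with 2.09e-04, carry no such mark. Neither do Neurod6, at -0.33 with an authors' adjusted p of 0.01, and Lhx2, at -0.32 with 0.0117.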

How the data were processed

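The table deposited by the authors holds raw read counts per gene for the 4 libraries, as whole numbers whose column totals differ. Trim Galore, Subread, featureCounts and edgeR and the build mm39 are named in the submitters' processing notes; versions, annotation and strand setting are not given in the sources used here. The authors' log2 fold change, log2 CPM, p-value, adjusted p-value and its -log10 were deposited in the same table, with a gene length in bases; of these, the log2 fold changes, adjusted p-values, marks and lengths were used.

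CPM are relative to the total over the deposited genes. Tests used edgeR 4.0.16 in R 4.3.3 with TMM, filterByExpr (minimum count 10) and the quasi-likelihood test without covariates, two-sided, with Benjamini-Hochberg adjustment over 13288 genes. The script was tested on simulated data. SE is the absolute log2 fold change over the square root of F, and 95% intervals use its t quantile. The 95% intervals and SEs rest on 2 libraries per group and a spread shared over genes (common biological coefficient of variation 8.27%). Named were the 9 genes, Lhx2, up to 4 called genes of smallest p per neural list (2 for other lists) and the 6 genes nearest to Eomes. Uncalled genes and Sstr2, Tcf12, Gadd45a, Prom1, Slc1a3 and Rgs5 were added after their values were seen. Of the other cell lists only counts, sums and medians are printed, except for Cldn5, Col1a1, Reln, Rgs5, Col3a1 and Pdgfrb. Exon overlaps were not looked up for Rgs5, Col3a1 and Pdgfrb. The genes and lists were chosen with earlier results of these data known. Lists overlap: Rcor2, Dll3, Hes6, Nhlh1, Nhlh2, Dcx, Tbr1 and Emx2 stand in more than 1. Alternatives were RLE, upper-quartile and no scaling, no filter, genes averaging 50 or more counts, the replicate block, DESeq2 1.42.0, limma-voom (limma 3.58.1), an adjusted p under 0.01 and each library left out. A planned protein alignment was not made, since no protein table was used here.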

Additional observations from a re-analysis of the deposited data

How the results depend on the processing

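Under 8 settings of scaling, filter, block and tool with all libraries, each of the 9 genes kept its direction and its side of the threshold. Eomes lay between -1.67 and -1.65 on the log2 scale, Neurog1 between -2.39 and -2.37, and Neurod6 between -0.33 and -0.31 with adjusted p from 0.00203 to 0.0257. At an adjusted p under 0.01, 4 of the 9 genes were called, without Neurod6, and 725 genes were lower and 972 higher, fewer by construction.

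With each library left out in turn, the log2 fold change ranged from -1.67 to -1.65 for Eomes, -2.61 to -2.19 for Neurog1, -0.57 to -0.45 for Insm1 and -0.44 to -0.43 for Neurog2, and these 4 kept their calls in each fit. The lone library of a group was then assumed to vary like the others. Neurod6 ranged from -0.37 to -0.28 with its call kept only without control 2, Gadd45g from -0.17 to 0.14 and Neurod2 from -0.049 to 0.063. Gadd45g reversed without control 1 (0.14) and without Lhx2 cKO 1 (0.000617), and Neurod2 without control 2 (-0.049), none of them called. Among other genes named, both uncalled, Dcx reversed without control 1 (range without 1 library -0.045 to 0.16) and Rcor1 without control 2 (-0.34 to 0.090). The neuron list had 1 gene lower in edgeR, 2 with library totals or limma-voom and 3 in DESeq2, and DESeq2 called 3 Cajal-Retzius genes higher in place of 5 and 3 red cell genes lower in place of 5. With library totals the radial glia list had 0 higher. The median of the neuron list ranged from -0.021 to 0.059 and reversed without control 1. Genes called lower ranged from 768 to 1079 and genes called higher from 864 to 1395, lowest without Lhx2 cKO 2 for both. The cause was not tested.

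The labels do not say whether same-numbered libraries share anything beyond the number. Over all genes, the deviations of same-numbered libraries correlated at -0.00515. With the number as a replicate block, Eomes was at -1.66 and Neurod6 at -0.32, and 5 of the 9 genes were called, so it changed no call of the 9. Depth limits Neurog1 and Neurod4, which had 18 to 130 and 69 to 89 counts per library.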
